A study of Mus musculus with 19 samples.

Results

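The comparison described here was that of the striatum with the prefrontal cortex within SCA17 knock-in (KI) mice, a mouse model of spinocerebellar ataxia type 17. Its members were chosen by their labels alone, as the 3 KI striatum libraries and the 3 KI prefrontal cortex libraries, 6 of the 19 RNA-seq libraries of the series, and every gene of the count table was examined. The KI mice carried a germline knock-in of an expanded polyglutamine repeat in the endogenous *Tbp* gene, which encodes the TATA-box binding protein, so the allele was not restricted to neurons. Per the methods of the study, the germline line was obtained by crossing a conditional (floxed) knock-in allele to EIIa-Cre mice, which express Cre in the early embryo. Wild-type (WT) mice of the same age served as the reference, with 3 striatum and 3 prefrontal cortex libraries. All mice were on the C57BL/6 strain, 3 months old and untreated. The remaining 7 libraries were from cerebellum and were not part of any contrast. They entered through the shared estimate of spread, the scaling of the libraries and the filter on low counts. A gene could therefore be tested because of its cerebellar level.

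The labels did not state that each library came from 1 mouse, so the p-values measure the spread between these libraries. The 6 KI libraries held between 10639110 and 16737744 counts assigned to genes and the 6 WT libraries between 13453498 and 15493036. Of the 41128 genes in the table, 16841 passed the filter on low counts and were tested. Levels are given as CPM, the counts of a gene scaled to the size of its library, in the order of the library numbers 1, 2 and 3, and regional contrasts as log2 fold changes of striatum over prefrontal cortex with their standard error (SE), so that a positive value means a higher level in the striatum. A gene was called at an adjusted p under 0.05 in edgeR's quasi-likelihood test, adjusted by Benjamini-Hochberg over all 16841 genes. A gene was described as having kept its contrast only where the KI contrast was called in the direction of the WT contrast and the 95% interval of the difference, KI minus WT, lay within 1 log2 unit of 0 on either side. This limit is wider than the whole contrast of some genes, so a kept contrast need not be an unchanged one. A gene was described as narrowed or widened only where that difference itself passed the test.

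Most neurons of the striatum are GABAergic medium spiny neurons, which receive glutamate from the cortex and dopamine from the midbrain. Direct-pathway medium spiny neurons carry the D1 dopamine receptor and the peptides substance P and dynorphin, and indirect-pathway neurons carry the D2 receptor, an adenosine receptor (*Adora2a*) and enkephalin. Both receptor classes act on a cAMP cascade built on the olfactory-type G protein, adenylyl cyclase 5 and striatal phosphodiesterases. Most neurons of the prefrontal cortex are glutamatergic projection neurons, which load vesicles through the transporter VGLUT1, and their layer identities are set by transcription factors such as TBR1 and FEZF2. TBP is a general transcription factor that recognizes the TATA box and is part of the machinery at most promoters.

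The labelled regions carried their markers in both genotypes. The vesicular glutamate transporter gene *Slc17a7* stood at 1514, 1342 and 1197 CPM in KI prefrontal cortex and at 109.8, 49 and 96.1 CPM in KI striatum, and the dopamine D1 receptor gene *Drd1* at 37.8, 71.8 and 15.7 CPM in KI prefrontal cortex and 277, 406 and 322 CPM in KI striatum. No library was the reverse of its label, but markers of neighbouring tissues differed between libraries. The 8 choroid plexus markers, led by transthyretin (*Ttr*), summed to 5480.0, 4368 and 7381 CPM in KI striatum and 53.2, 32.7 and 20.3 CPM in KI prefrontal cortex. In WT they summed to 6937, 9124 and 1581 CPM in striatum, so the WT striatum library numbered 3 held the least of the 6. The 5 tested olfactory bulb markers summed to 12.9, 19.9 and 326 CPM in WT prefrontal cortex against 43.5, 17.7 and 6.97 CPM in KI prefrontal cortex, with the WT library numbered 3 far above the rest. The WT prefrontal cortex library numbered 3 was also the one in which indirect-pathway genes of the striatum were highest among the WT prefrontal cortex libraries, and among the KI prefrontal cortex libraries those numbered 1 and 2 carried more of them than that numbered 3. The striatum libraries also differed in cortical glutamatergic genes. Over the 17 listed, the median log2 CPM was 5.77, 4.38 and 5.57 in KI striatum and 3.65, 3.15 and 5.85 in WT striatum. In summed CPM all KI striatum libraries were instead below the WT ones, at 1484, 1469 and 1376 against 1654, 1597 and 1995. The part of dissection in these differences, and of these differences in the comparison of KI with WT, was not tested. In bulk tissue, moreover, fewer cells of a type and less RNA per cell cannot be told apart.

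In KI mice, 2201 genes were called higher in the striatum (13.1% of the genes tested) and 2634 higher in the prefrontal cortex (15.6%). Of these, 943 and 929 differed by at least 1 log2 unit. The same contrast in WT mice called 2365 genes higher in the striatum (14%) and 2769 higher in the prefrontal cortex (16.4%). The share of genes called was thus slightly lower in KI in both directions.

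The 15 largest contrasts toward the KI striatum, among genes with at least 10 CPM in the higher region and no overlap between libraries, were led by genes of the choroid plexus and not of striatal neurons. *Folr1*, which encodes a folate receptor, stood at 82.1, 64.5 and 103 CPM in KI striatum and at 0.424, 0.225 and 0.29 CPM in KI prefrontal cortex. *Ttr*, which encodes the thyroxine carrier transthyretin, stood at 4918, 3974 and 6794 CPM in KI striatum and 37.8, 22.9 and 14.3 CPM in KI prefrontal cortex. The others were *Cldn2*, *Kcne2*, *Slc4a5*, *Tmem72*, *Sostdc1*, *Slc39a4*, *Aqp1*, *1500015O10Rik*, Kl, *Prlr*, *Prr32*, *Steap1* and F5, of which *Kcne2*, *Sostdc1*, *Aqp1* and Kl also belong to the list of choroid plexus markers. Their spread between libraries was wide, and 10 of the 15 (*Folr1*, *Ttr*, *Kcne2*, *Slc39a4*, *Sostdc1*, *Aqp1*, Kl, *Prlr*, *Prr32* and F5) lost their call when any 1 of the KI prefrontal cortex libraries was left out, with edgeR adjusted p from 0.0519 to 0.117. The 15 largest contrasts toward the KI prefrontal cortex were, by contrast, mostly genes of cortical neurons. They included the neurogenic transcription factor genes *Neurod1* and *Neurod6*, the zinc transporter gene *Slc30a3*, *Slc17a7*, the interneuron peptide gene *Vip* and *Rtn4rl2*, which encodes a Nogo receptor family member. *Neurod1* stood at 14.2, 13.3 and 10.3 CPM in KI prefrontal cortex and 0.608, 0.0733 and 0.463 CPM in KI striatum, a contrast of -5.00 ± 0.62 (SE). Others were *Dkkl1*, *Gm11549*, *9130024F11Rik*, *Fam19a1*, *Ovol2*, *Prdm8*, *Hkdc1* and *Glt8d2*.

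The sequences immediately upstream of 4 genes with large regional contrasts are shown because the mutated protein is the one that binds the TATA box. Each is the 100 bases before the annotated RefSeq start on build GRCm38.p6, written 5′ to 3′ on the strand of the gene, with capitals marking the GC box GGGCGG or its reverse complement CCGCCC. *Drd2*, the D2 receptor gene, lies on the plus strand (chr9:49340303-49340402). *Rgs9*, which encodes a regulator of G protein signalling enriched in the striatum, lies on the minus strand (chr11:109298182-109298281). *Adcy5*, which encodes adenylyl cyclase 5, lies on the plus strand (chr16:35154764-35154863), as does *Slc17a7* (chr7:45163821-45163920).
Drd2: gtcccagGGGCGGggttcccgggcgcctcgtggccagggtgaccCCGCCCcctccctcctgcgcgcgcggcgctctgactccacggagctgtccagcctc
Rgs9: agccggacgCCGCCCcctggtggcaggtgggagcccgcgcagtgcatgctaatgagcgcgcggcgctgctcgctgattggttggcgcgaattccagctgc
Adcy5: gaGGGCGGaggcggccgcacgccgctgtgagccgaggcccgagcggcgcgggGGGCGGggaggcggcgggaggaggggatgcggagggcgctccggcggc
Slc17a7: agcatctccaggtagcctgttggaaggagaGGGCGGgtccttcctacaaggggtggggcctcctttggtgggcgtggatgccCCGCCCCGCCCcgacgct
None of the 4 windows held the letters TATAAA on either strand, and each held at least 1 GC box. Over the 15834 promoters matched to 12400 of the genes tested, 2.78% of such 100-base windows held TATAAA and 42.2% held a GC box on either strand. Among genes higher in the striatum by the average contrast of both genotypes and at least 1 log2 unit, the shares were 3.9% and 35% of 1050 promoters. Among the corresponding genes higher in the prefrontal cortex, they were 5.65% and 34.1% of 1132 promoters. These are matches of letters and not sites of binding.

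Most receptor genes of medium spiny neurons remained striatal in KI mice, and for 10 of the 13 tested the contrast was numerically smaller than in WT mice. Of 13 tested receptor genes, 9 were called higher in the KI striatum and none higher in the KI prefrontal cortex, as in WT. *Drd1* stood at 277, 406 and 322 CPM in KI striatum and 37.8, 71.8 and 15.7 CPM in KI prefrontal cortex, a contrast of 3.00 ± 0.41 (SE, edgeR adjusted p = 8.07e-05). In WT it stood at 474, 556.4 and 566 CPM in striatum and 22.3, 13.1 and 45.4 CPM in prefrontal cortex, a contrast of 4.30 ± 0.41 (SE). All 3 KI striatum libraries lay below all 3 WT striatum libraries. *Drd2* stood at 132, 169.5 and 151 CPM in KI striatum and 11.7, 18 and 0.871 CPM in KI prefrontal cortex, against 232, 274 and 212 CPM in WT striatum and 1.64, 2.65 and 9.77 CPM in WT prefrontal cortex. Its contrast was 3.85 ± 0.59 (SE) in KI and 5.67 ± 0.64 (SE) in WT, and the KI prefrontal cortex libraries numbered 1 and 2 were above each WT prefrontal cortex library. *Adora2a*, the adenosine receptor gene of indirect-pathway neurons, stood at 182, 252 and 182 CPM in KI striatum and 18, 32.1 and 3.1 CPM in KI prefrontal cortex, against 412, 370.5 and 338 CPM in WT striatum and 3.63, 3.33 and 24.1 CPM in WT prefrontal cortex. *Gpr6*, an orphan receptor gene of indirect-pathway neurons, was called with a contrast of 3.61 ± 0.45 (SE) in KI against 5.32 ± 0.47 (SE) in WT. The receptor genes without a call in KI were *Chrm4*, *Oprm1*, *Oprd1* and *Htr6*.

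*Chrm4*, the M4 muscarinic acetylcholine receptor gene, was the receptor gene that was called in WT and not in KI, but with libraries paired by number it was called in KI as well (0.88, edgeR adjusted p = 0.0399). It stood at 14.2, 18 and 16.6 CPM in KI striatum and 6.61, 9.81 and 10.4 CPM in KI prefrontal cortex, a contrast of 0.86 ± 0.33 (SE, edgeR adjusted p = 0.0597). In WT striatum it stood at 26.7, 23.3 and 27.2 CPM and in WT prefrontal cortex at 3.83, 7.8 and 10.3 CPM, a contrast of 1.81 ± 0.33 (SE). The difference between the 2 contrasts was -0.95 (95% interval -1.93 to 0.03), so a loss in KI was not shown. *Drd3*, the D3 receptor gene, was called in KI and not in WT, but it did not exceed 2 CPM in any of the 12 libraries and lost its call without the KI striatum library numbered 2 or the KI prefrontal cortex library numbered 1 or 2 (adjusted p from 0.0637 to 0.078). *Cnr1*, the CB1 cannabinoid receptor gene, was at 231, 264 and 261 CPM in KI striatum and 189.7, 167 and 157 CPM in KI prefrontal cortex, against 360.2, 549 and 363 CPM in WT striatum and 207, 174 and 174 CPM in WT prefrontal cortex. Its contrast was 0.56 ± 0.14 (SE, edgeR adjusted p = 0.00808) in KI and 1.20 ± 0.14 (SE) in WT, and it was called lower in KI than in WT within the striatum (-0.75 ± 0.14 SE, edgeR adjusted p = 0.0213). *Htr1b*, a serotonin receptor gene, had a contrast of 2.31 in KI and 3.28 in WT, with a difference of -0.97 (95% interval -1.71 to -0.23). Over the 13 receptor genes the median contrast was 2.92 in KI and 2.33 in WT, while the median of the gene-by-gene differences was -0.95. The gene at the median was *Gpr149* in both genotypes, 1 of the 3 receptor genes with a larger contrast in KI, whereas 10 of the 13 had a smaller one. None of the 13 met the criterion for a kept contrast.

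**Figure D1:**
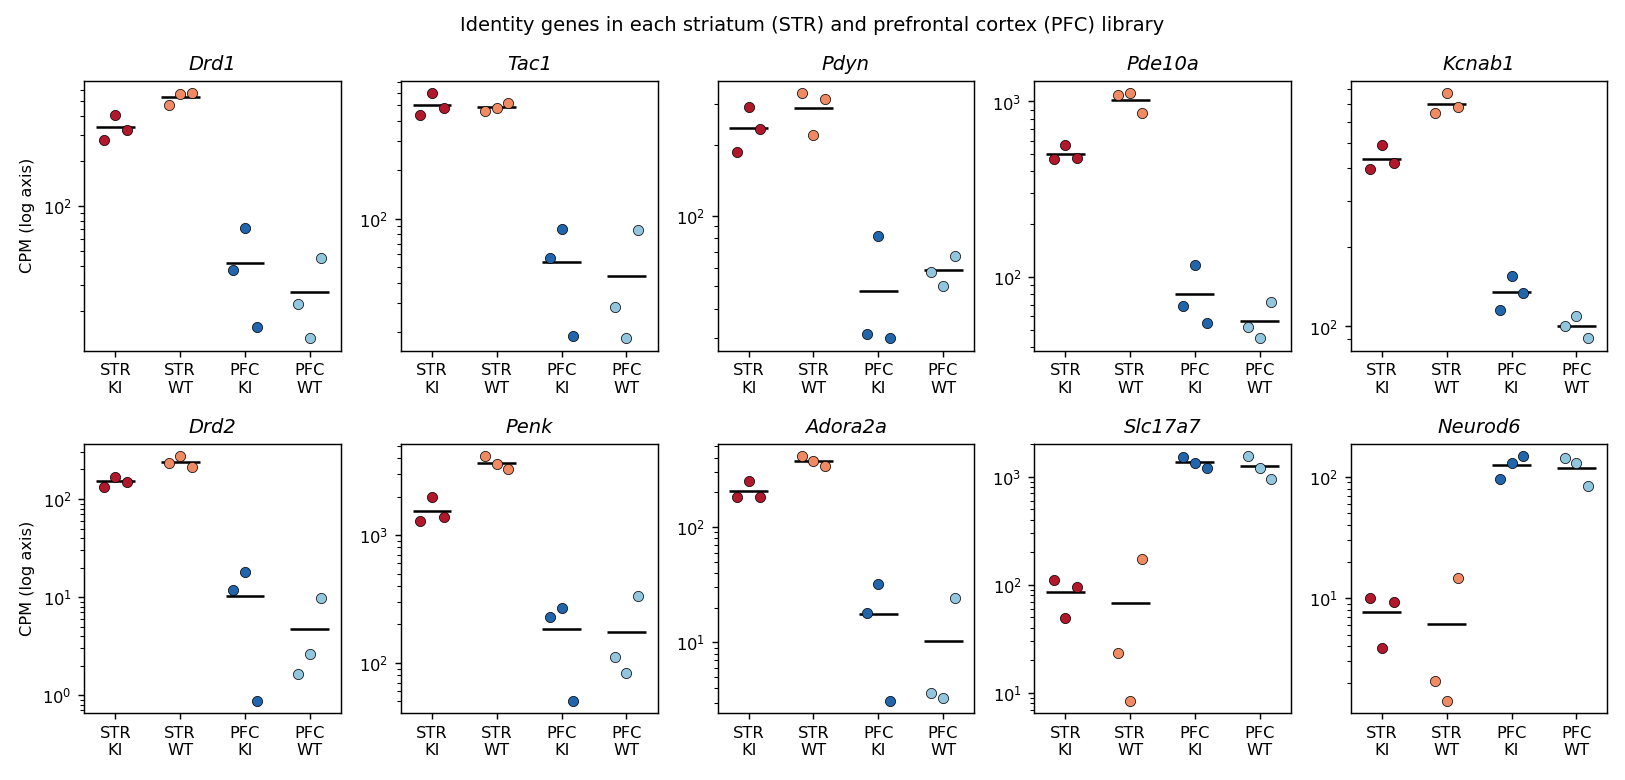
Levels in CPM (log axis) of 10 genes in each library of striatum and prefrontal cortex of KI and WT mice. Points are single libraries and lines are group means. *Drd2* lay between 132 and 170 CPM in the KI striatum and between 212 and 274 CPM in the WT striatum, whereas *Slc17a7* was at 958 CPM or more in all 6 prefrontal cortex libraries.

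The genes of the cAMP and G protein cascade behind these receptors were, with 1 exception, called higher in the KI striatum. Of 17 genes, 16 were called in KI and 17 in WT. All 17 had a smaller contrast in KI than in WT, with a median difference of -0.65 against a median of -0.00423 over all genes tested, and in 10 of the 17 all KI striatum libraries lay below all WT striatum libraries, where 8.46% of all genes tested did so. *Pde10a*, the medium spiny neuron phosphodiesterase 10A gene, stood at 469, 564 and 477 CPM in KI striatum and 69, 118 and 54.9 CPM in KI prefrontal cortex. In WT it stood at 1087, 1113 and 857 CPM in striatum and 52.5, 45 and 72.2 CPM in prefrontal cortex. The *Pde10a* contrast was thus 2.64 ± 0.23 (SE) in KI and 4.17 ± 0.23 (SE) in WT, and the difference of -1.53 (95% interval -2.22 to -0.84) had an unadjusted p of 0.000224 and an edgeR adjusted p of 0.511. *Adcy5* stood at 616, 776 and 531 CPM in KI striatum and 120.5, 133 and 58.7 CPM in KI prefrontal cortex, against 1135, 1216 and 932 CPM in WT striatum and 63.3, 57.2 and 101 CPM in WT prefrontal cortex. Its contrast was 2.62 ± 0.24 (SE) in KI and 3.89 ± 0.24 (SE) in WT. *Ppp1r1b*, which encodes the phosphatase inhibitor DARPP-32, stood at 1298, 1950.0 and 1538 CPM in KI striatum and 187, 260.5 and 49.6 CPM in KI prefrontal cortex, against 2369, 2702 and 2220.0 CPM in WT striatum and 94.2, 97.2 and 163 CPM in WT prefrontal cortex. Both genes were lower in each KI than in each WT striatum library, and both were higher in the KI prefrontal cortex libraries numbered 1 and 2 than in that numbered 3.

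*Gnal*, which encodes the olfactory-type G protein alpha subunit, kept its contrast, with 589.6, 811 and 667 CPM in KI striatum and 182, 224 and 144 CPM in KI prefrontal cortex. The contrast was 1.91 ± 0.16 (SE) in KI and 2.28 ± 0.16 (SE) in WT, with an interval of the difference from -0.84 to 0.10. *Camk2b*, which encodes a subunit of calcium/calmodulin-dependent kinase II, was the other kept member (0.37 in KI, 0.80 in WT, interval of the difference -0.75 to -0.11), although its unadjusted p for the difference was 0.0112. The KI call of *Camk2b* was lost without the KI prefrontal cortex library numbered 3 (adjusted p = 0.0794) and without the KI striatum library numbered 2 (adjusted p = 0.114). *Itpr1*, the gene of an intracellular calcium release channel, was the member without a call in KI. Its contrast was 0.38 ± 0.17 (SE, edgeR adjusted p = 0.0948) against 0.87 ± 0.17 (SE) in WT, and the difference of -0.49 (95% interval -0.98 to 0.00) neither passed its test nor met the criterion for a kept contrast. *Arpp21*, which encodes a cAMP-regulated phosphoprotein, was called lower in KI than in WT within the striatum (-0.88 ± 0.18 SE, edgeR adjusted p = 0.0325), yet its regional contrast of 1.39 in KI and 1.88 in WT differed by -0.50 (95% interval -1.04 to 0.04). In *Arpp21* the prefrontal level was also lower in KI, at 598, 611 and 429 CPM in KI and 883, 578 and 668 CPM in WT, with 2 KI libraries above the lowest WT library.

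Among the neuropeptide genes, *Penk* and *Pdyn* differed in how their striatal levels compared with WT. *Penk*, the enkephalin precursor gene of indirect-pathway neurons, stood at 1287, 1992 and 1388 CPM in KI striatum and 4156, 3566 and 3268 CPM in WT striatum, so that the groups did not overlap. In prefrontal cortex it stood at 228, 271 and 50.2 CPM in KI and 110.3, 83 and 334 CPM in WT, where the groups did overlap. Its contrast was 3.08 ± 0.48 (SE) in KI and 4.38 ± 0.48 (SE) in WT, with a difference of -1.30 (95% interval -2.72 to 0.13). *Pdyn*, the dynorphin precursor gene of direct-pathway neurons, stood at 186, 290.3 and 235 CPM in KI striatum and 31.2, 82 and 30 CPM in KI prefrontal cortex, against 333, 220.1 and 314 CPM in WT striatum and 57.5, 50.3 and 67.6 CPM in WT prefrontal cortex. The *Pdyn* contrast was 2.31 ± 0.32 (SE) in KI and 2.30 ± 0.32 (SE) in WT and met the criterion for a kept contrast, with a difference of 0.01 (95% interval -0.94 to 0.96). *Tac1*, the substance P precursor gene, stood at 435, 595 and 479.7 CPM in KI striatum and 461, 486 and 517 CPM in WT striatum, and these ranges overlapped. The contrast of *Tac1* was 3.21 ± 0.60 (SE) in KI and 3.47 ± 0.60 (SE) in WT, and the interval of the difference, from -2.04 to 1.52, was too wide for it to count as kept. *Cartpt* was not called in either genotype.

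Grouped by pathway, all 5 tested indirect-pathway genes (*Drd2*, *Adora2a*, *Penk*, *Gpr6* and *Sp9*) were called higher in the KI striatum, and in each of them the KI striatum libraries lay below the WT striatum libraries. Their median contrast was 3.51 in KI and 5.17 in WT. The contrast was numerically smaller in KI for 4 of the 5 and larger for *Sp9*, whose striatum over prefrontal cortex ratio was 3.566 in KI and 2.725 in WT. Of the 7 direct-pathway genes, 6 were called higher in the KI striatum and 7 in the WT striatum, with median contrasts of 3.00 and 3.47. In 2 of them, *Drd1* and *Chrm4*, the KI striatum libraries lay below the WT striatum libraries, as they did in 8.46% of all genes tested. The median difference was -1.66 for the indirect-pathway genes and -0.26 for the direct-pathway genes. Whether the pathways differed from each other was not tested. Without the KI prefrontal cortex library numbered 3, *Sp9* was no longer called in KI (edgeR adjusted p = 0.0581). The indirect-pathway genes summed to 1754, 2621 and 1887 CPM in KI striatum, and to 279, 352 and 63.7 CPM in KI prefrontal cortex. In WT they summed to 5100.0, 4538 and 4094 CPM in striatum and 124, 98.2 and 413 CPM in prefrontal cortex, where the library numbered 3 was the highest. Without the KI prefrontal cortex library numbered 2, the median difference of the indirect-pathway genes moved to -0.89.

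Of 12 genes for channels and synaptic proteins, 11 were called higher in the striatum in KI and 11 in WT. *Kcnab1*, which encodes a beta subunit of voltage-gated potassium channels, had the smallest p for a narrower contrast among all genes with a regional contrast. It stood at 397, 490.0 and 418 CPM in KI striatum and 115, 156 and 134 CPM in KI prefrontal cortex. In WT it stood at 647, 770.0 and 685 CPM in striatum and 101, 109 and 90 CPM in prefrontal cortex. In the striatum each KI library was below each WT library, and in the prefrontal cortex each KI library was above each WT library. The *Kcnab1* contrast was 1.69 ± 0.13 (SE) in KI and 2.81 ± 0.13 (SE) in WT, and the difference of -1.12 (95% interval -1.51 to -0.73) had an unadjusted p of 1.5e-05 and an edgeR adjusted p of 0.254. With DESeq2 in place of edgeR, the same difference passed (-1.11, adjusted p = 0.000388). Within the striatum *Kcnab1* was called lower in KI (-0.69 ± 0.13 SE, edgeR adjusted p = 0.0209).

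*Cacna2d3*, a calcium channel subunit gene, showed a difference of -0.67 (95% interval -1.05 to -0.29), with contrasts of 1.27 in KI and 1.94 in WT, and was also called lower in KI within the striatum (-0.63 ± 0.13 SE, edgeR adjusted p = 0.0317). *Strip2* (2.73 in KI and 2.70 in WT) and the GABA-A receptor delta subunit gene *Gabrd* (1.01 and 1.10) kept their contrasts. For *Gabrd* this occurred although it was lower in each KI than in each WT striatum library, and it stood at 62.9, 112 and 88.2 CPM in KI prefrontal cortex against 101, 137 and 105 CPM in WT prefrontal cortex. *Scn4b*, a sodium channel subunit gene, had a contrast of 2.96 ± 0.51 (SE) in KI, with a wide spread of 464, 191 and 332 CPM over the KI striatum libraries. *Kcnj4*, a potassium channel gene, was not called in either genotype. The median difference over the 12 genes was -0.56.

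The striatal transcription factor genes, many of which specify medium spiny neurons in development, were mixed. Of 19 tested, 14 were called higher in the KI striatum and 14 in the WT striatum, and the median difference was -0.08. *Ebf1*, a factor of direct-pathway neurons, kept its contrast, with 28.5, 35 and 33.5 CPM in KI striatum and 8.61, 10.4 and 9.58 CPM in KI prefrontal cortex (1.76 ± 0.15 SE in KI, 1.88 ± 0.15 SE in WT). *Zfp521* likewise kept its contrast (1.79 in KI and 1.52 in WT). *Isl1*, the LIM homeobox gene of striatonigral neurons, stood at 25.4, 35.3 and 33.6 CPM in KI striatum and 1.94, 2.4 and 0.0968 CPM in KI prefrontal cortex, and its contrast was 4.34 in KI and 4.32 in WT. The striatum libraries of KI and WT overlapped for all 3 genes. *Rarb*, the retinoic acid receptor beta gene, stood instead at 139, 227 and 172 CPM in KI striatum and 232, 255 and 249.5 CPM in WT striatum, without overlap, and had contrasts of 2.88 ± 0.30 and 3.77 ± 0.30 (SE). *Bcl11b*, which encodes CTIP2, had 245, 341 and 231 CPM in KI striatum and 116, 92.7 and 53.6 CPM in KI prefrontal cortex, with a contrast of 1.63 ± 0.27 (SE) in KI and 2.30 ± 0.27 (SE) in WT. *Foxp1* (1.34 and 1.80), *Foxp2* (2.45 and 2.52) and *Meis2* (1.62 and 1.73) were called in both genotypes.

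*Mef2c* was the member of the striatal transcription factor list that was higher in the prefrontal cortex, at 467, 715 and 615 CPM in KI prefrontal cortex and 159.6, 152 and 160.0 CPM in KI striatum, and it kept that contrast (-1.93 ± 0.15 SE in KI, -1.94 ± 0.15 SE in WT). It also belongs to the cortical list. *Dlx1*, *Dlx2*, *Sp8* and *Sp9* mark GABAergic neurons of the olfactory bulb as well, and in the WT prefrontal cortex library numbered 3, which held the olfactory bulb markers, they were higher than in the other WT prefrontal cortex libraries. *Sp8* stood at 0.822, 1.15 and 14.8 CPM in WT prefrontal cortex and 0.727, 0.899 and 0.968 CPM in KI prefrontal cortex. *Dlx1* was called higher in the prefrontal cortex in WT (-1.50 ± 0.41 SE) and not in KI (-0.53 ± 0.41 SE, edgeR adjusted p = 0.374).

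Genes of striatal cholinergic interneurons also remained striatal. *Chat*, which encodes choline acetyltransferase, stood at 22.8, 21.5 and 18.6 CPM in KI striatum and 1.09, 1.72 and 0.774 CPM in KI prefrontal cortex, a contrast of 4.10 ± 0.50 (SE). The striatal level was 33.7, 48.2 and 30.5 CPM in WT, above each KI library, but the contrast in WT was 4.20 ± 0.45 (SE), with a WT prefrontal level of 0.548, 1.36 and 4.18 CPM. The choline and vesicular acetylcholine transporter genes *Slc5a7* (3.58 in KI, 4.20 in WT) and *Slc18a3* (3.68 and 4.19) and the LIM homeobox gene *Lhx8* (3.99 and 4.62) were called in both genotypes. With DESeq2 in place of edgeR, the KI call of *Lhx8* was lost (4.08, adjusted p = 0.0659). Of the 9 genes in the list, 6 were called higher in the KI striatum and 7 in the WT striatum. Markers shared by all GABAergic neurons were higher in the striatum as well. *Gad2*, which encodes glutamate decarboxylase 2, stood at 471, 521 and 460.5 CPM in KI striatum and 166, 205 and 149.8 CPM in KI prefrontal cortex and kept its contrast (1.48 in KI and 1.18 in WT), as did the vesicular GABA transporter gene *Slc32a1* (1.54 and 1.49). *Gad1* was called in KI (1.02 ± 0.25 SE) and not in WT (0.44 ± 0.25 SE), where the prefrontal cortex libraries stood at 425, 511 and 1081 CPM and that numbered 3 was the highest.

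Most cortical identity genes remained higher in the prefrontal cortex of KI mice. Of 26 cortical transcription factor genes, 18 were called higher in the prefrontal cortex in KI and 18 in WT. The criterion for a kept contrast was met by 9 of them and by 19% of all genes tested. *Tbr1*, a T-box factor of deep-layer neurons, stood at 139, 137 and 151 CPM in KI prefrontal cortex and 20.6, 6.89 and 11.4 CPM in KI striatum, against 149, 150.1 and 93.6 CPM in WT prefrontal cortex and 5.81, 0.669 and 22.6 CPM in WT striatum. Its contrast was -3.46 ± 0.58 (SE) in KI and -3.77 ± 0.59 (SE) in WT. The contrast was large in both genotypes, but the striatal libraries varied in this gene. *Neurod2* (-3.82 in KI and -4.21 in WT), *Neurod6* (-4.00 and -4.31), *Emx1* (-3.19 and -3.64) and the subcerebral factor gene *Fezf2* (-2.61 and -3.18) were called in both genotypes without meeting the criterion for a kept contrast.

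The 9 cortical transcription factor genes that kept their contrast were *Emx2*, *Cux2*, *Lhx2*, *Lmo4*, *Mef2c*, *Rorb*, *Tle4*, *Zbtb18* and *Sox5*. *Cux2*, an upper-layer factor, stood at 35.5, 46.3 and 40 CPM in KI prefrontal cortex and 9.53, 4.98 and 8.99 CPM in KI striatum, with contrasts of -2.37 ± 0.26 (SE) in KI and -2.45 ± 0.26 (SE) in WT. *Sox5*, a deep-layer factor, had contrasts of -1.46 ± 0.16 (SE) and -1.58 ± 0.16 (SE). *Emx2* had a contrast of -0.80 ± 0.26 (SE) in KI, which lost its call when libraries of the same number were paired (-0.77, adjusted p = 0.0827) and, with edgeR adjusted p from 0.051 to 0.167, without any 1 of the KI striatum libraries or without the KI prefrontal cortex library numbered 3. *Rorb* lost its call without the KI prefrontal cortex library numbered 2 (adjusted p = 0.0805). *Tle4* was higher in the striatum in both genotypes, at 120.0, 177 and 131 CPM in KI striatum and 63.8, 73.6 and 67.6 CPM in KI prefrontal cortex. *Lmo3* and *Pou3f1* were likewise higher in the striatum, *Pou3f1* with contrasts of 1.25 in KI and 1.45 in WT, whereas *Lmo3* was called in WT (1.38) and not in KI (0.73 ± 0.30 SE, edgeR adjusted p = 0.0813). With libraries paired by number *Lmo3* was called in KI (0.87, edgeR adjusted p = 0.0414). It stood at 267, 138 and 82.8 CPM in KI prefrontal cortex, where the library numbered 1 reached the level of the striatum. *Etv1*, a layer 5 factor, was called in WT (-0.49 ± 0.13 SE) and not in KI (-0.19 ± 0.13 SE).

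Of 17 genes of glutamatergic transmission and cortical projection neurons, 15 were called higher in the prefrontal cortex in KI and 15 in WT. Of the 17, 7 kept their contrast, where 19% of all genes tested did so. *Slc17a7* had a contrast of -3.99 ± 0.62 (SE, edgeR adjusted p = 0.000419) in KI and -4.20 ± 0.62 (SE) in WT. In the striatum it stood at 109.8, 49 and 96.1 CPM in KI and 23.3, 8.4 and 171 CPM in WT, so the striatum libraries themselves differed in their content of this gene. *Slc30a3*, the vesicular zinc transporter gene, stood at 204, 191 and 185 CPM in KI prefrontal cortex and 11.4, 2.86 and 6.21 CPM in KI striatum, with contrasts of -4.81 ± 0.54 (SE) and -4.95 ± 0.55 (SE). *Camk2a*, which encodes the alpha subunit of calcium/calmodulin-dependent kinase II, kept its contrast, at 1158, 1134 and 1314 CPM in KI prefrontal cortex and 590.3, 612 and 509 CPM in KI striatum (-1.08 ± 0.21 SE in KI, -1.02 ± 0.21 SE in WT). In the striatum its KI libraries were all below the WT libraries of 869.8, 805 and 746 CPM. The other kept genes were *Nptx1*, *Lingo1*, *Slc6a7*, *Sv2b*, *Kcnv1* and *Tmem178*, with KI contrasts from -2.75 for *Nptx1* to -0.74 for *Kcnv1*.

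*Slc17a6*, the VGLUT2 gene, was called in WT (-3.79 ± 0.87 SE) and not in KI (-1.73 ± 0.75 SE, edgeR adjusted p = 0.102). It stood at 31.6, 0.88 and 3.77 CPM in KI striatum and 37.9, 37.6 and 45.5 CPM in KI prefrontal cortex, and the KI striatum library numbered 1 was far above the other two. VGLUT2 is also the transporter of thalamic neurons, whose 5 listed markers, *Slc17a6* included, summed to 154, 110.2 and 125 CPM in KI striatum and 121, 122 and 125 CPM in WT striatum. *Lhx9*, another of them, was at 0.744, 0 and 0 CPM in KI striatum and 0 CPM in every WT striatum library. The part of tissue from neighbouring regions in the value of *Slc17a6* was not tested. *Itpka* was not called in either genotype, although it was called in KI with libraries paired by number (-0.43, edgeR adjusted p = 0.0242). *Mal2* was called in KI (-0.85 ± 0.27 SE) and not in WT (-0.46 ± 0.27 SE). The KI call of *Mal2* was lost without the prefrontal cortex library numbered 2 or 3 or the striatum library numbered 1 or 3, with adjusted p from 0.0535 to 0.137.

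Several genes that distinguish cortical layers are also transcribed in the striatum. Of all genes tested, 15.6% were called higher in the prefrontal cortex and 13.1% higher in the striatum in KI, against 16.4% and 14% in WT. In layers 2 to 4, 4 of 9 genes were called higher in the prefrontal cortex in KI and 6 in WT. *Rasgrf2*, a Ras exchange factor gene of upper layers, stood at 60.2, 68.1 and 48.3 CPM in KI prefrontal cortex and 17.7, 9.75 and 15.6 CPM in KI striatum and kept its contrast (-2.03 in KI and -2.20 in WT). *Pou3f2* had a contrast of -0.90 ± 0.28 (SE) in KI, which lost its call when libraries were paired by number (-0.86, adjusted p = 0.0578). Among 7 layer 5 genes, 2 were called higher in the prefrontal cortex in KI and 3 in WT, too few to read against those shares. Among 11 tested genes of layer 6 and the subplate, 5 were called higher in the prefrontal cortex in KI and 4 in WT, and 3 (*Tle4*, *Syt6* and *Sulf1*) were higher in the striatum in both genotypes. *Ccn2*, a subplate gene, kept its contrast (-1.12 ± 0.32 SE in KI, -1.15 ± 0.31 SE in WT). *Cplx3*, a complexin gene of the subplate, had a contrast of -1.50 ± 0.50 (SE) in KI, and its call was lost with the pairing (-1.52, adjusted p = 0.0689). *Nr4a2*, a deep-layer and claustrum marker, was called in KI (-2.39 ± 0.82 SE, edgeR adjusted p = 0.0433) and not in WT (-1.68 ± 0.80 SE), where the striatum libraries ranged widely at 4.94, 2.45 and 48.4 CPM. The KI call of *Nr4a2* was lost without the libraries numbered 1 or 2 of either region (adjusted p from 0.0777 to 0.137), that of *Ccn2* without the prefrontal cortex library numbered 1 (0.0557) or the striatum library numbered 2 (0.0509), and that of *Cplx3* and *Pou3f2* without several single libraries (from 0.0517 to 0.154).

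Of 14 interneuron genes of the cortex, 6 were called higher in the prefrontal cortex in KI and 10 in WT, and none of them passed the test of the difference. *Vip*, the vasoactive intestinal peptide gene, stood at 47.1, 63 and 77.2 CPM in KI prefrontal cortex and 5.81, 1.39 and 3.7 CPM in KI striatum, against 117, 106 and 81.7 CPM in WT prefrontal cortex and 1.87, 1.71 and 5.64 CPM in WT striatum. Each KI prefrontal cortex library was below each WT one, yet the contrast was -4.09 ± 0.72 (SE) in KI and -5.06 ± 0.74 (SE) in WT, with a difference of 0.97 (95% interval -1.22 to 3.16). *Pvalb* (-0.66 in KI and -1.54 in WT), *Calb2* (-0.47 and -3.57), *Adarb2* (-0.24 and -0.87) and *Ndnf* (-0.48 and -1.12) were called in WT and not in KI. *Calb2*, the calretinin gene, is also a gene of olfactory bulb interneurons and stood at 18.6, 17.2 and 206 CPM in WT prefrontal cortex, where the library numbered 3 carried the olfactory bulb markers. *Npy* kept its contrast (-0.72 ± 0.23 SE in KI, -0.74 ± 0.22 SE in WT), although its KI call was lost without the KI prefrontal cortex library numbered 2 (adjusted p = 0.136) or the KI striatum library numbered 1 (0.0873) or 2 (0.0575), and *Kcnc2*, which encodes a fast potassium channel, was called in both (-2.14 and -2.50).

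Taking the striatal lists as 1 set of 65 tested genes, 53 were called higher in the KI striatum and 1 higher in the KI prefrontal cortex, against 54 and 2 in WT, and 52 were called in the same direction in both genotypes. The median contrast was 1.91 in KI and 2.30 in WT. The KI minus WT difference was negative for 51 of the 65, with a median of -0.55, and 12 of them had an unadjusted p under 0.05 for the difference, all toward a smaller contrast in KI, where 4.41% of all genes tested had such a p in either direction. Of the 65, 8 met the criterion for a kept contrast. It was met by 19% of all genes tested and by 15% of those higher in the striatum on average. The cortical lists held 63 tested genes, of which 40 were called higher in the prefrontal cortex in KI and 42 in WT. Of the 63, 20 kept their contrast, where 23% of all tested genes higher in the prefrontal cortex on average did so. Whether the lists differed from these shares was not tested. The median contrast of the 63 was -1.30 in KI and -1.22 in WT, with a median difference of 0.12. The 3 medians were taken separately and need not point the same way. The KI minus WT difference was positive for 38 of the 63 and negative for 25. For a gene higher in the prefrontal cortex, a positive difference is a smaller contrast in KI. The lists were chosen with earlier results of these data known, and their counts are descriptions. The striatal lists include *Pde10a*, *Kcnab1*, *Camk2b* and *Cacna2d3*, which the paper names among genes lower in the KI striatum in these same data. The striatal counts are therefore partly selected on that outcome and are not independent support for it.

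**Figure D2:**
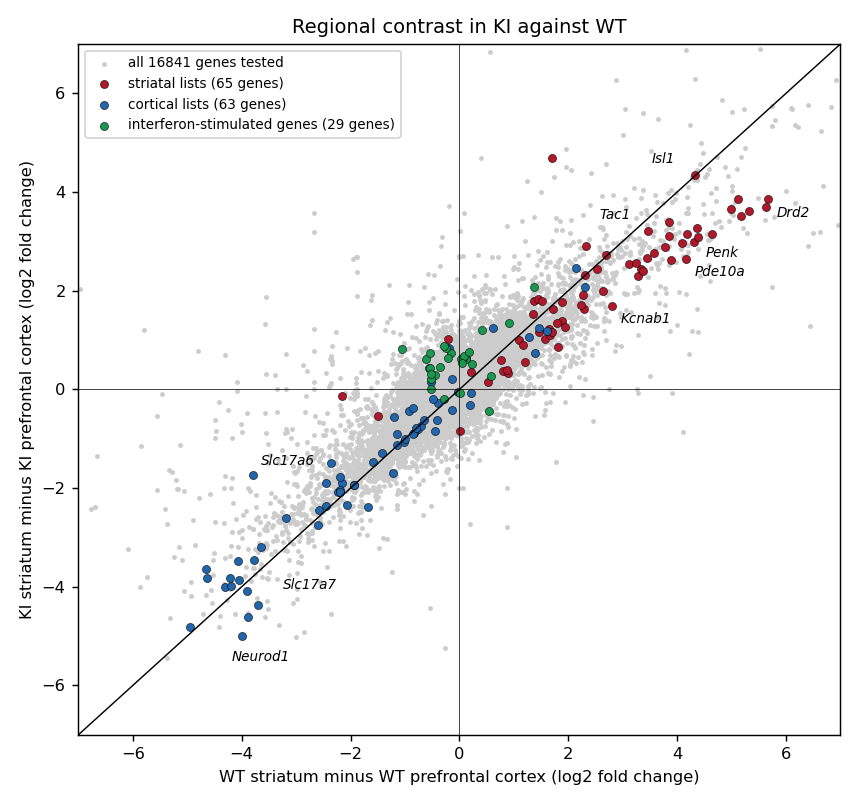
Regional contrast (log2 striatum over prefrontal cortex) in WT mice (horizontal axis) and KI mice (vertical axis) for all 16841 genes tested, with the striatal lists (65 genes), the cortical lists (63) and the interferon-stimulated genes (29) in colour. The line marks equal contrasts, and 17 genes lie outside the axes. Most striatal genes lie to the right of the origin and under the line, with medians of 2.30 in WT and 1.91 in KI.

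Across all genes tested, KI and WT contrasts shared their large features. Of the 2164 genes called in WT with at least 1 log2 unit, 1704 (78.7%) were called in KI in the same direction and 460 (21.3%) were not. Of the 1872 such genes in KI, 1607 (85.8%) were called in WT. No gene was called in opposite directions. Pearson's r between the 2 contrasts was 0.847 over the 16841 genes, a description across genes that share their libraries and are not replicates. A call in one genotype only does not show a difference, and no gene passed the test of the difference itself (0% of the genes tested, edgeR), while 743 genes (4.41%) had an unadjusted p under 0.05. DESeq2 called 12 genes for the same difference. The median half-width of the 95% interval of the difference was 0.538 log2 units, so most differences smaller than this were not resolvable with 3 libraries in each group.

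A set of 2373 regional genes was chosen by the contrast averaged over both genotypes (called, at least 1 log2 unit), a choice that uses the 2 genotypes alike. Of them, 503 (21.2%) kept their contrast in KI by the criterion above, 164 (14.2%) of the 1156 striatum-higher genes and 339 (27.9%) of the 1217 prefrontal-higher genes. The criterion was met by 19% of all genes tested. At a limit of 2 log2 units it was met by 54 (6.23%) of 867 regional genes. The shares there were 2.71% of the striatum-higher and 9.88% of the prefrontal-higher genes. The criterion depends on the width of the interval, and whether the 2 directions differ in the share kept was not tested. Of the 2373 regional genes, 1568 (66.1%) had a numerically smaller contrast in KI. They were 721 (62.4%) of the striatum-higher and 847 (69.6%) of the prefrontal-higher genes, against 52.9% of all genes tested. The median ratio of the KI to the WT contrast was 0.895. An unadjusted p under 0.05 was found for 129 regional genes toward a smaller and 19 toward a larger contrast. These shares changed with single libraries. Without 1 library at a time, the share of striatum-higher genes with a smaller contrast ranged from 52.4% (without the KI prefrontal cortex library numbered 1) to 69.8% (without the WT prefrontal cortex library numbered 3), and that of prefrontal-higher genes from 52.2% (without the KI striatum library numbered 1) to 81.8% (without the WT striatum library numbered 3).

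**Figure D3:**
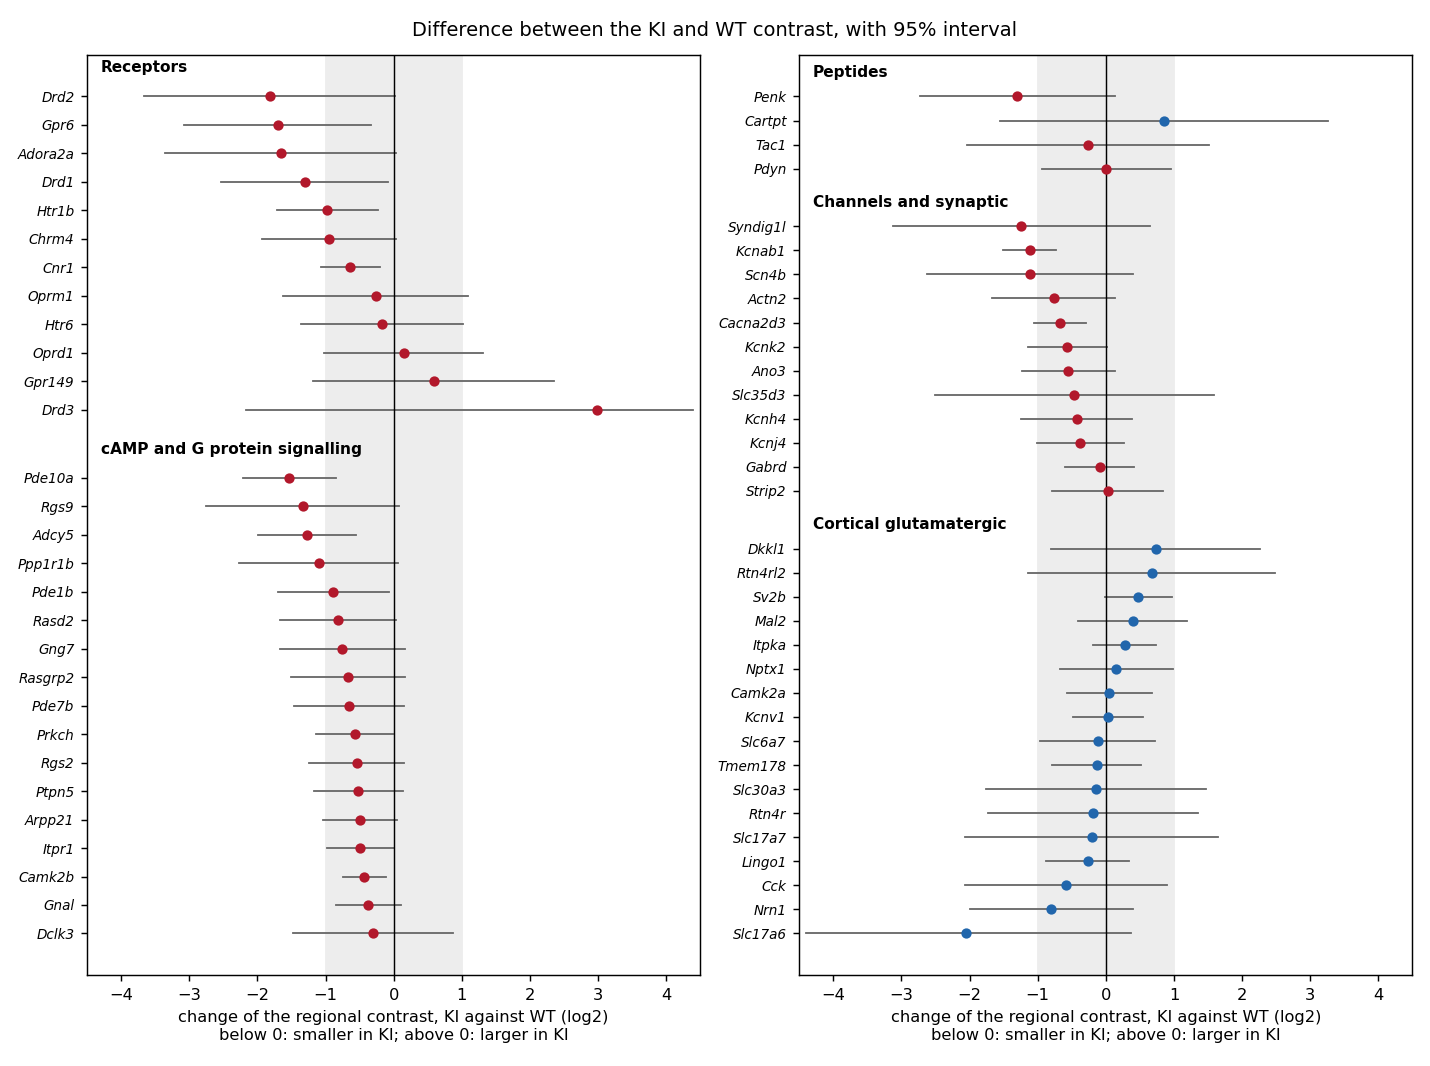
Difference of the regional contrast between KI and WT (log2 units) with its 95% interval for named genes, signed so that a value below 0 is a smaller contrast in KI. Genes higher in the prefrontal cortex are blue, the grey band marks 1 log2 unit on either side of 0, and the intervals of *Drd3* and *Slc17a6* run past the axis at 4.4 units. *Kcnab1*, at -1.12, has an interval that excludes 0, whereas that of *Pdyn* is centred near 0 and lies inside the band.

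The 5 regional genes with the smallest p for a narrower contrast in KI were *Kcnab1*, *Pde10a*, *Rasa4*, *Strn* and *Gpr155*. *Strn*, which encodes the scaffold protein striatin, stood at 143, 161 and 165 CPM in KI striatum and 50.5, 52.5 and 48.6 CPM in KI prefrontal cortex, against 217, 226 and 204 CPM in WT striatum and 42.5, 47.4 and 46.8 CPM in WT prefrontal cortex. Its contrast was 1.63 ± 0.08 (SE) in KI and 2.24 ± 0.08 (SE) in WT, with a difference of -0.62 (95% interval -0.87 to -0.36) and an edgeR adjusted p of 0.344. All KI striatum libraries were below all WT striatum libraries, and all KI prefrontal cortex libraries were above all WT ones. *Gpr155*, a membrane protein gene, showed the same order of groups, with 120.5, 141 and 117 CPM in KI striatum and 201, 199.8 and 151 CPM in WT striatum and a difference of -0.76 (95% interval -1.07 to -0.44). Both were called lower in KI within the striatum (-0.47 ± 0.08 SE, edgeR adjusted p = 0.0139 for *Strn*, and -0.54 ± 0.10 SE, edgeR adjusted p = 0.0211 for *Gpr155*). *Rasa4*, a Ras GTPase-activating protein gene, was higher in the prefrontal cortex and had a contrast of -0.69 ± 0.16 (SE) in KI and -1.99 ± 0.17 (SE) in WT, from 7.21, 8.39 and 6.58 CPM in KI and 11.6, 12 and 15.6 CPM in WT prefrontal cortex. The edgeR adjusted p of the difference was 0.275 for *Rasa4* and 0.365 for *Gpr155*.

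The 5 genes with the smallest p for a wider contrast in KI were at low levels. *Bdh2*, a dehydrogenase family gene, stood at 7.3, 4.91 and 8.06 CPM in KI striatum and 2.12, 1.27 and 1.55 CPM in KI prefrontal cortex, against 3.21, 4.01 and 1.93 CPM in WT striatum and 2.88, 2.17 and 2.83 CPM in WT prefrontal cortex. The contrast was 2.02 ± 0.29 (SE) in KI and 0.22 ± 0.29 (SE) in WT, with a difference of 1.80 (95% interval 0.94 to 2.67) and an edgeR adjusted p of 0.549. *Gabra6*, the GABA-A receptor alpha6 subunit gene of cerebellar granule cells, did not exceed 3 CPM in any of the 12 libraries. *Chrnb4*, a nicotinic receptor subunit gene, stood at 2.5, 2.2 and 2.31 CPM in KI striatum, and *Gm26857* and *Cfap97d2* were below 2 CPM throughout. *Gm26857* was at 0 in all 3 KI prefrontal cortex libraries, so no fold is given.

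The difference between genotypes was then examined within each region. Within the striatum, 66 genes were called higher in KI than in WT (0.392% of the genes tested) and 32 lower (0.19%). Of the 65 genes of the striatal lists, 4 were called lower (*Kcnab1*, *Cacna2d3*, *Cnr1* and *Arpp21*) and none higher, although each of these calls was lost in 5 to 9 of 20 alternative settings, and in 28 the 3 KI striatum libraries lay below the 3 WT libraries, where 8.46% of all genes tested did so. *Kcnab1* and *Cacna2d3* are also among the genes that the paper names as lower in the KI striatum in these data. For the 63 genes of the cortical lists, none was called in either direction within the striatum. *Drd1* in the KI striatum was at 62.9% of its WT mean, *Drd2* at 63%, *Penk* at 42.5%, *Pde10a* at 49.4% and *Tac1* at 103%. None of these 5 genes was called within the striatum, with edgeR adjusted p from 0.0542 for *Pde10a* to 0.998 for *Tac1*. Within the prefrontal cortex, 41 of the 65 striatal genes were numerically higher in KI, and none was called. In the cAMP and G protein list, 15 of 17 were higher in KI prefrontal cortex, with a median of 0.30 log2 units, while within the striatum the median was -0.42. The summed CPM of this list was 3384, 4038 and 2477 in KI prefrontal cortex and 3156, 2897 and 3427 in WT prefrontal cortex. The KI prefrontal cortex library numbered 3 was thus the lowest of the 6, that numbered 2 was the highest, and that numbered 1 was below the WT library numbered 3.

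**Figure D4:**
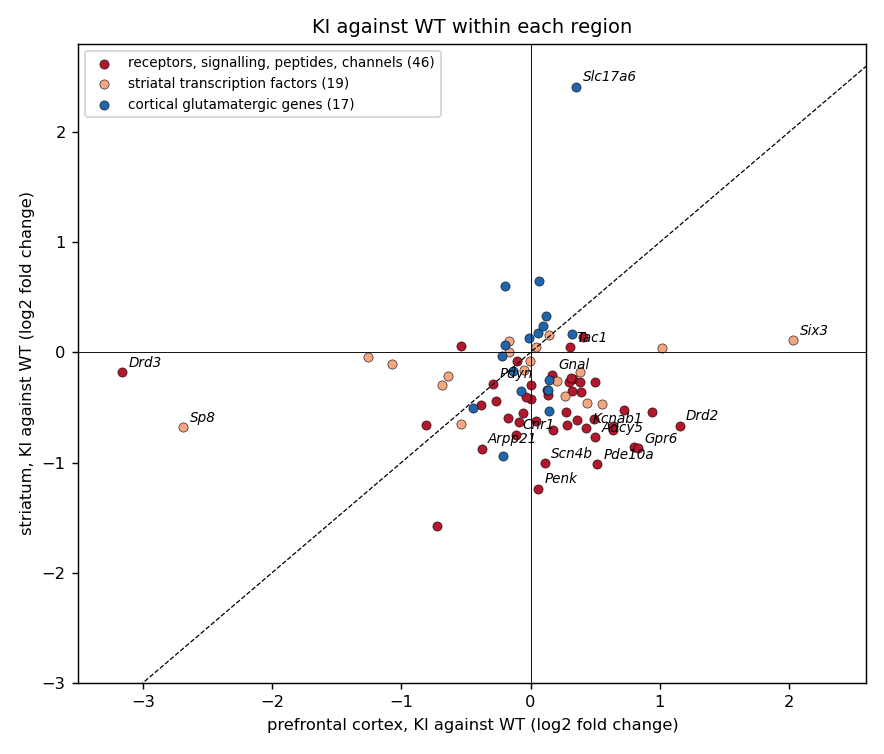
Log2 fold change of KI over WT within the prefrontal cortex (horizontal axis) and within the striatum (vertical axis), as fitted by edgeR, for 46 striatal receptor, signalling, peptide and channel genes, 19 striatal transcription factor genes and 17 cortical glutamatergic genes, each point 1 gene. The dashed line marks equal changes in both regions, and most of the 65 striatal genes lie below 0 on the vertical axis, with a median of -0.41.

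Markers of some other cell types differed between the KI regions as well. Of all genes tested, 13.1% were called higher in the striatum and 15.6% higher in the prefrontal cortex in KI. The shares in WT were 14% and 16.4%. All 8 choroid plexus markers and all 5 ependymal markers were called higher in the KI striatum, as were 7 and 5 in WT. Of 11 oligodendrocyte markers, 10 were called higher in the KI striatum and 6 in the WT striatum, with a median contrast of 1.36 in KI and 0.95 in WT. All 11 had a larger contrast in KI, but none passed the test of the difference. *Mbp*, the myelin basic protein gene, stood at 11870.0, 5487 and 10510.0 CPM in KI striatum and 1910.0, 3279 and 5243 CPM in KI prefrontal cortex, against 9629, 8926 and 6411 CPM in WT striatum and 2362, 6613 and 3882 CPM in WT prefrontal cortex. The 11 markers summed to 22320.0, 9849 and 20030.0 CPM over the KI striatum libraries, of which that numbered 2 was the lowest, and to 3601, 6192 and 9903 CPM over the KI prefrontal cortex libraries. Few astrocyte, microglia and endothelial markers were called. Of the 10 in each list, 0, 1 and 0 were called higher in the KI striatum and 1, 0 and 1 higher in the KI prefrontal cortex. These counts did not exceed the shares over all genes tested. Of the immediate early genes, *Ier2* alone was called, higher in the prefrontal cortex in KI (-1.60 ± 0.38 SE) and in WT (-2.10 ± 0.38 SE). *Fos* ranged over 15.8, 81.9 and 37.1 CPM within the KI striatum libraries.

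**Figure D5:**
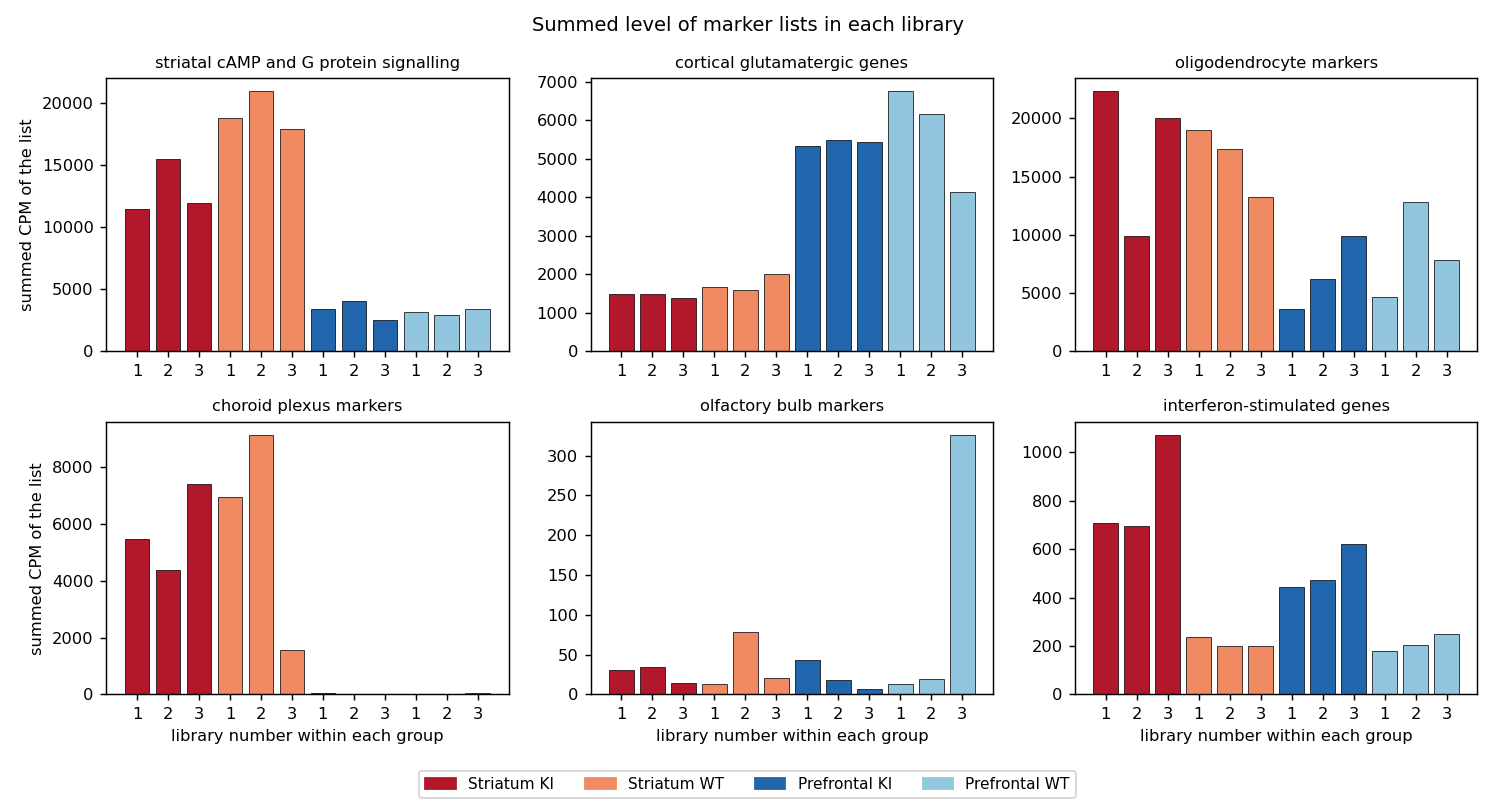
Summed CPM of 6 marker lists (bars, 1 per library) in striatum and prefrontal cortex of KI and WT mice. Choroid plexus markers sum to 1581 CPM in the WT striatum library numbered 3 and to at least 4368 CPM in the other striatum libraries, and olfactory bulb markers to 326 CPM in the WT prefrontal cortex library numbered 3.

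Interferon-stimulated genes had a numerically larger contrast in KI than in WT. These genes encode antiviral proteins and the factors that induce them, and 23 of 29 were called higher in KI than in WT within the striatum, where 0.392% of all genes tested were called higher, and 12 within the prefrontal cortex, where 0.0891% were. Of the 29, 5 were called higher in the striatum than in the prefrontal cortex in KI (*Irf9*, *Ifi27l2a*, *Rtp4*, *Bst2* and *Lgals3bp*), against 2 higher and 2 lower in WT, and 13.1% of all genes tested were called higher in the KI striatum. With libraries paired by number, 8 of the 29 were called in KI, with *Isg15*, *Usp18* and *Gbp3* added. The median contrast was 0.61 in KI and -0.15 in WT, and the difference was positive for 26 of the 29, with a median of 0.70. *Irf9*, a subunit of the interferon-induced transcription factor complex, stood at 48.2, 46.4 and 60.7 CPM in KI striatum and 36.5, 26.1 and 37.5 CPM in KI prefrontal cortex, against 14.9, 12 and 11.1 CPM in WT striatum and 11.2, 11.1 and 13.8 CPM in WT prefrontal cortex. Its contrast was 0.63 ± 0.17 (SE, edgeR adjusted p = 0.0104) in KI and 0.07 ± 0.18 (SE) in WT. *Bst2*, which encodes tetherin, stood at 27, 23.2 and 57.2 CPM in KI striatum and 7.45, 7.19 and 11.1 CPM in KI prefrontal cortex, with contrasts of 2.07 ± 0.45 (SE) and 1.37 ± 0.49 (SE). In the striatum the KI library numbered 3 was the highest for both genes. Without that library *Irf9*, *Ifi27l2a* and *Rtp4* were no longer called between the KI regions, with edgeR adjusted p of 0.0639, 0.296 and 0.192. *Ifi27l2a* and *Rtp4* also lost their call without the KI prefrontal cortex library numbered 1 (edgeR adjusted p = 0.107 and 0.0582) or 2 (0.121 and 0.0696). None of the 29 passed the test of the difference after adjustment.

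The mutated gene *Tbp* showed no called contrast, at 38, 42 and 42.3 CPM in KI striatum and 33.2, 35.9 and 32 CPM in KI prefrontal cortex (0.27 ± 0.11 SE in KI, 0.25 ± 0.11 SE in WT). Its count does not check the knock-in label, because reads of the normal and the expanded allele were counted together. *Inpp5a*, which encodes an inositol polyphosphate phosphatase, stood at 88.5, 98.6 and 84.2 CPM in KI striatum and 63.3, 65.5 and 59.9 CPM in KI prefrontal cortex, against 92.7, 104 and 97.8 CPM in WT striatum and 67.4, 62.5 and 72.2 CPM in WT prefrontal cortex. It kept its contrast, with 0.52 ± 0.12 (SE, edgeR adjusted p = 0.00342) in KI and 0.55 ± 0.12 (SE) in WT and a difference of -0.02 (95% interval -0.38 to 0.33). *Tomm70a*, a mitochondrial import receptor gene, stood at 437, 552 and 456 CPM in KI striatum and 666, 612 and 602 CPM in WT striatum, without overlap, and its contrast was 1.01 ± 0.10 (SE) in KI and 1.57 ± 0.10 (SE) in WT. The neuronal marker gene *Rbfox3* was not called between regions in either genotype (-0.22 in KI, -0.10 in WT), nor was *Sp1*. *Polr2a*, the gene of the catalytic subunit of RNA polymerase II, had no called contrast either, but stood at 64.1, 79.6 and 67.4 CPM in KI striatum and 40.5, 33.5 and 35.9 CPM in WT striatum and was called higher in KI within the striatum (0.94 ± 0.11 SE, edgeR adjusted p = 0.000452). This rise was not particular to the striatum. The fitted KI level of *Polr2a* was 191.8% of WT in the striatum and 181.9% of WT in the prefrontal cortex.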

How the data were processed

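RNA was extracted with TRIzol, and libraries were made from the 3 brain regions with SMART-Seq v4 and Nextera XT kits, which do not mark the strand. Per the labels and the submitters' processing notes, the authors used bcl2fastq 2.17.1.14, STAR 2.5.2b, HTSeq and DESeq2 1.10.1 with build GRCm38.p3, and they deposited raw read counts per gene and a normalized table, of which only the counts were used. The strand setting of the counting was not given in the sources used here, so overlapping and antisense genes cannot be told apart. The methods of the study name Cuffdiff, which needs aligned reads, so edgeR was used in its place.

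The counts were fitted with edgeR 4.0.16 in R 4.3.3, with TMM scaling, its default expression filter and 1 mean for each of 6 groups over all 19 libraries (13 residual degrees of freedom), followed by quasi-likelihood tests with Benjamini-Hochberg adjustment. The script was checked on simulated counts. Contrasts were striatum over prefrontal cortex in KI and in WT, their difference, and KI over WT within each region. With 3 libraries against 3, an exact permutation test could not go below 0.1, so none was used. Gene positions came from GENCODE M21, in which 40254 of 41128 identifiers matched, and promoter sequences from RefSeq.

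Same-numbered libraries of the 2 regions deviated together from their group means (r = 0.317, 0.360 and 0.368 in KI and 0.310, 0.327 and 0.233 in WT, against -0.0758 to -0.253 for other numbers), so a fit with the replicate number as a block was an alternative. The main fit did not pair libraries. By sex-linked transcripts, the KI libraries numbered 1 and 2 of both regions were male and those numbered 3 female. In WT those numbered 1 were male and those numbered 2 and 3 female. Sex thus matched by number across the regions but was not balanced between the genotypes. Other alternatives were DESeq2 1.42.0, other scalings and filters, fewer libraries, a sex covariate and leaving out 1 library. No 2 replicates were alike within sampling noise. The members and gene lists were chosen with earlier results of these data known. Genes named are list members, the 15 largest KI contrasts in each direction, the 5 regional genes with the smallest p for a narrower and for a wider contrast, *Polr2a* and genes the study names. Any other gene is said to have been chosen after its values were seen. Some single genes are not reported here, though the counts over lists include them.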

Additional observations from a re-analysis of the deposited data

Results flagged for a closer look

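For the interferon-stimulated genes *Rtp4* and *Ifit1* the KI libraries were all higher in the striatum than in the prefrontal cortex, whereas the WT libraries were all lower. The difference itself was tested with edgeR and did not pass adjustment over all genes for either gene. *Rtp4*, a gene induced by interferon, stood at 25.5, 29.1 and 48.5 CPM in KI striatum and 20.4, 18.8 and 22.3 CPM in KI prefrontal cortex, against 4.61, 2.68 and 4.33 CPM in WT striatum and 5.62, 4.61 and 6.67 CPM in WT prefrontal cortex, a difference of contrasts of 1.28 (95% interval 0.55 to 2.02, unadjusted p = 0.00183, adjusted p = 0.942). *Ifit1*, an antiviral RNA-binding protein gene, stood at 34.5, 33.7 and 68.1 CPM in KI striatum and 21.1, 24.6 and 31.7 CPM in KI prefrontal cortex, against 4.67, 2.82 and 3.71 CPM in WT striatum and 5.48, 6.17 and 11.7 CPM in WT prefrontal cortex, a difference of 1.87 (95% interval 0.75 to 2.99, unadjusted p = 0.00259, adjusted p = 0.967). Over all genes tested, 19 showed such an opposite order of libraries, of which 17 had a mean of at least 1 CPM in a group.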

How the results depend on the processing

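The counts of genes called between regions stayed within 1.5 times their reported value under each alternative tried, in KI and in WT. Leaving out 1 library gave 1544 to 1867 genes higher in the KI striatum and 2002 to 2418 higher in the KI prefrontal cortex. With the replicate block, which pairs libraries by number, they were 2148 and 2531, and 2329 and 2691 in WT. For the difference between genotypes, DESeq2 called 12 genes, named after their values were seen (*Gpr155*, *Kcnab1*, Tmem128, *Rasa4*, Defb11, Anks1b, *Gabra6*, Arel1, *Pde10a*, Enpp5, *Strn* and St8sia3), the replicate block 0, and leaving out 1 library 0 or 1 (Tmem128, without KI prefrontal cortex replicate 1). Without both WT libraries numbered 3, a setting chosen after seeing the data, 1 gene was called (*Neurod2*, 2.69, adjusted p = 0.0407). The cause of these differences was not tested.

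The share of regional genes with a smaller contrast in KI depended on the choice of genes and libraries. Among striatum-higher genes it was 62.4%, 75.2% without both WT libraries numbered 3, 77.2% for genes chosen by the WT contrast, 49.5% for genes chosen by the KI contrast and 68.6% at a limit of 2 log2 units, and it ranged from 52.4% to 69.8% when 1 library was left out. Among prefrontal-higher genes it was 69.6%, and under the same settings 82.9%, 78.6%, 58.8% and 74.6%, with a range from 52.2% to 81.8%. The replicate block gave 61.3% and 71.9%. The cause was not tested.

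The median difference was below 0 under all 20 alternatives for receptors (-1.28 to -0.67), the cAMP and G protein list (-0.88 to -0.40), channels (-0.73 to -0.42), neuropeptides (-1.05 to -0.07) and indirect-pathway genes (-2.65 to -0.89), and above 0 under all 20 for interferon-stimulated genes (0.38 to 0.85). It changed sign in at least 1 for direct-pathway genes (-1.28 to 0.24), striatal transcription factors, cortical transcription factors and glutamatergic genes. Of 2466 alternative values for the KI contrast of 177 genes called in KI, 2316 kept direction and call, 150 lost the call and 0 reversed. Of 600 values for 30 genes between genotypes within the striatum, 501 kept direction and call and 99 lost the call. The replicate block ended the KI calls of *Emx2* (-0.77), *Pou3f2* (-0.86) and *Cplx3* (-1.52), added those of *Chrm4* (0.88), *Lmo3* (0.87), *Itpka* (-0.43), *Opalin* (1.29), *Isg15* (0.81), *Usp18* (0.83) and *Gbp3* (0.60), and changed no other KI call among the list members and named genes. Fits of the 6 KI libraries alone were not possible for WT or for the difference. Genes below about 1 CPM rested on few counts.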
